A study of Mus musculus with 12 samples.

Results

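Axon guidance ligands and receptors were followed in sorted cells of the embryonic mouse pancreas. The set held 44 genes chosen by name, 21 ligands and 23 receptors of the Slit, semaphorin, netrin, ephrin and CXCL12 families, of 55417 genes in the count table. Gcg-Timer mice report transcription of Gcg, the glucagon gene, with green and red fluorescence, and the table carries the reporter as EGFP, IRES and mRFP1 sequences. Pancreata at E17.5 were sorted into cells without the reporter (group N, non-alpha cells), cells in which green dominated (group A, described in the labels as newly generated alpha cells) and cells with both colours (group B, described as further differentiated alpha cells). Each group had 4 libraries, all 12 from Gcg-Timer pancreas, and no animals without the reporter enter the comparisons. Replicates came from different mothers, and the sources used here do not give the number of embryos behind each library. The N group is every other cell of the pancreas together, so a level in N is an average over many cell types.

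Library totals were 32114292 to 38545756 estimated counts for N, 18168677 to 25873635 for A and 16216967 to 24259218 for B. Levels are normalised read counts (CPM, each library brought to one common total) scaled by TMM, a method that sets the bulk of genes equal between libraries. Gcg lay between 66.3 and 142 CPM for N, 12600 and 22000 CPM for A and 31300 and 47700 CPM for B. EGFP lay between 0.802 and 3.05, 525 and 971, and 3090 and 3500 CPM. Most marker genes of other pancreatic cells were above 0 in the alpha cell gates. The summed counts of 15 mesenchymal marker genes took 0.932% to 2.03% of the library in N, 0.314% to 1.24% in A and 0.0499% to 0.161% in B. The 12 endothelial marker genes took 0.027% to 0.0554% in N, 0.00603% to 0.032% in A and 0.00116% to 0.00563% in B, and 1 of them, Erg, was at 0 in all 4 B libraries. In these bulk libraries fewer cells of a type and less RNA per cell cannot be told apart.

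Guidance molecules were named for steering growing axons, and the same molecules act on blood vessels, migrating cells and epithelia. Slits are secreted ligands that repel cells through Robo receptors. Secreted class 3 semaphorins bind neuropilins, which signal with plexins as partners, while Sema3e can bind plexin D1 directly. Netrins attract through DCC and neogenin and repel through UNC5 receptors, and ephrins and Eph receptors are membrane proteins that signal at cell contacts. In the mouse pancreas, Slit and Robo signalling is known for its part in islet architecture, where alpha cells come to lie around a beta cell core.

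All 44 members passed the filter on low counts and were tested with edgeR across 17230 genes, with a gene called at an adjusted p under 0.05. In A against N, 28 of 44 members were called, 5 higher and 23 lower, where 45.1% of all genes tested were called, 23.8% higher and 21.3% lower. In B against N, 31 were called, 5 higher and 26 lower, against 60.2% of all genes, 29.7% higher and 30.5% lower. In B against A, 15 were called, all of them lower, against 13.7% of all genes, 4.63% higher and 9.12% lower. The members' median log2 change was -0.78 in A against N and -1.44 in B against N, beside -0.02 and -0.03 over all genes tested. In B against A it was -0.85, beside -0.01 over all genes. The comparisons share libraries, A and B being set against the same N, so they are not independent of one another. The fit was by group and did not use the replicate number, by which libraries were taken as pairs. With that number as a block no member lost its call. Calls added were 1 in A against N, 2 in B against N and 3 in B against A. Over all genes the block called, in that order, 24.4% higher and 23.5% lower, 30.3% and 31.5%, and 6.12% and 10.1%.

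The scaling sets how these directions split. With library totals alone and no TMM factors, the median gene shifted up by 0.55 in A against N and by 0.51 in B against N on the log2 scale. Under that scaling 13 members were called higher and 10 lower in A against N, and 12 higher and 24 lower in B against N. Over all genes tested it called 47.8% higher and 8.04% lower in A against N, and 47.96% higher and 19.8% lower in B against N. The members' median log2 change was then -0.21 and -0.90. The members still called lower in A were Slit3, Sema3c, Sema3d, Sema5a, Plxnd1, Nrp1, Nrp2, Ntn1, Efnb2 and Ephb4, and 13 of the 28 calls in that comparison were lost, each of them a lower one. The TMM factors were 0.732 to 0.81 in N and 1.1 to 1.18 in A and B. Beside this, erythroid marker genes took 6.14% to 23.0% of counts in N and at most 0.214% in A and B, and 15 acinar marker genes took 6.78% to 11.7% in N. Their part in the shift was not tested.

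**Figure D1:**
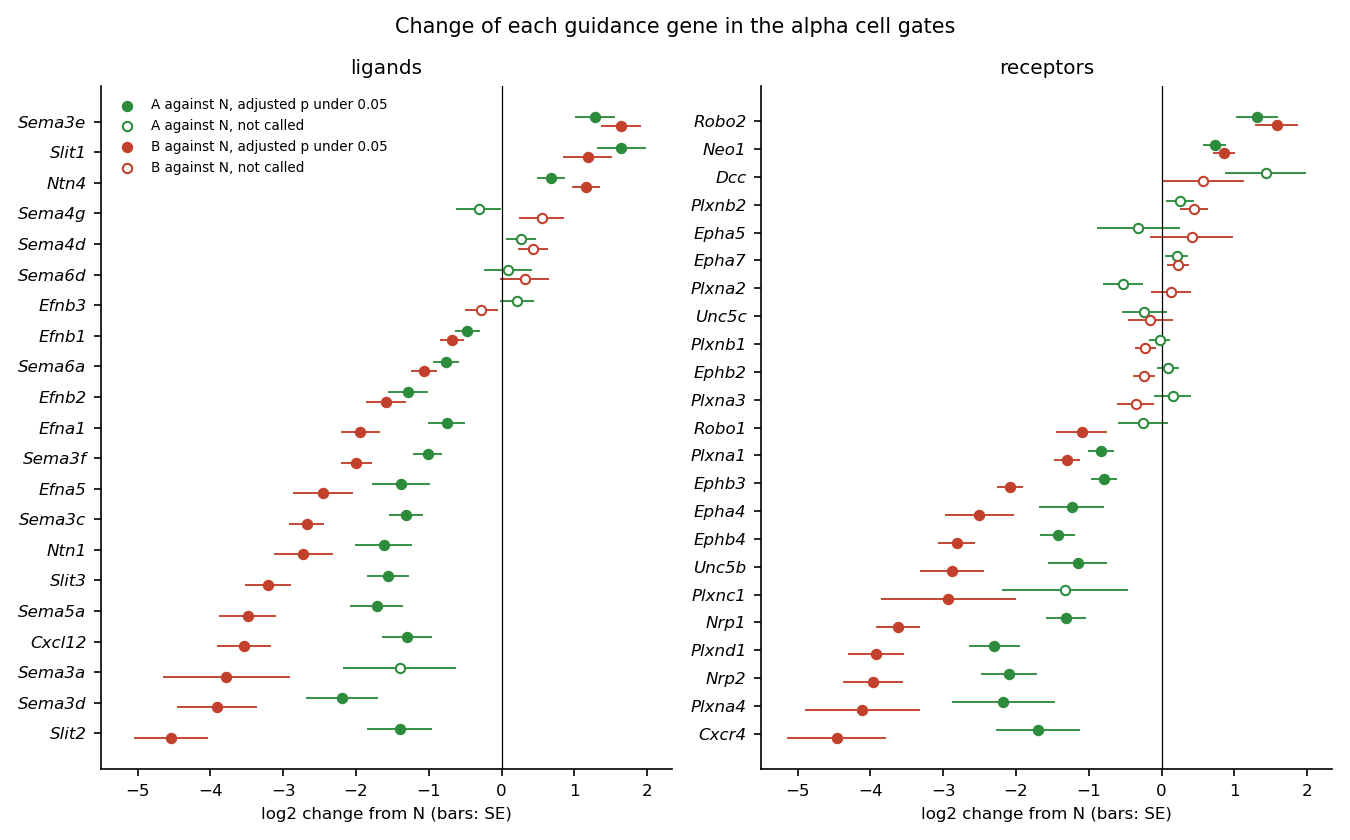
The log2 change of each of the 44 guidance genes against N in A and in B, with the standard error as a bar, and filled points for calls at an adjusted p under 0.05. The 5 called members to the right of 0 are Slit1, Robo2, Sema3e, Ntn4 and Neo1, and the 23 members called to the left of 0 in both comparisons reach -4.54 for Slit2 in B.

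The members that stood above N in both alpha cell gates were 3 ligands, Slit1, Sema3e and Ntn4, and 2 receptors, Robo2 and Neo1. They are 5 of 44 members, where 22.4% of all genes tested were higher than N in both gates. Each of the 5 kept its direction and its call under all 20 alternatives run. Robo2 and Neo1 are thus the receptors of the set called higher in both alpha cell gates with TMM scaling. Each belongs to a family with a ligand, Slit1 and Ntn4, that was higher too. With library totals alone, the receptors Plxnb1, Plxnb2 and Epha7 and the ligand Sema4d joined the 5 in both gates. That scaling called 47.8% of all genes tested higher in A against N and 47.96% in B against N. All 10 of the pan-endocrine marker genes were also higher than N in both gates, so genes of alpha cells and genes of endocrine cells in general cannot be told apart by these comparisons.

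Robo2, a receptor for Slits on chromosome 16 (GRCm39 chr16:73688727-74208713, minus strand), was at 21.2, 19.8, 10.4 and 23.4 CPM in the N libraries. It was at 56.0, 51.6, 25.9 and 51.2 CPM in A and at 53.6, 40.9, 49.0 and 80.1 CPM in B. No A or B library overlapped the N range. A replicate 3 lay well under the other A libraries, and N replicate 3 was likewise the lowest N library. With the replicate number as a block, A against N gave a log2 change of 1.31 (SE 0.20, edgeR adjusted p = 0.000356). Without the block the log2 change was 1.30 (SE 0.29, edgeR adjusted p = 0.00272) in A against N and 1.58 (SE 0.29, adjusted p = 0.000395) in B against N. A and B overlapped and their difference was not called (edgeR adjusted p = 0.583). Robo1, the other Slit receptor of the set, was not higher in either gate. It averaged 10.5 ± 1.25 CPM in N, 8.76 ± 4.35 in A and 4.91 ± 1.76 in B (SD, n = 4), and it was called lower in B against N (log2 change -1.10, SE 0.35, edgeR adjusted p = 0.016). That call on Robo1 was lost with library totals alone and without the libraries numbered 3.

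Neo1 encodes neogenin, a receptor for netrins and for repulsive guidance molecules, and lies on chromosome 9 (GRCm39 chr9:58781970-58943724, minus strand). Its levels were 99.6, 92.4, 78.7 and 89.6 CPM in N, 159, 126, 130 and 180 CPM in A, and 170, 135, 142 and 203 CPM in B. Every alpha gate library was above every N library. On the log2 scale the change was 0.73 (SE 0.15, edgeR adjusted p = 0.00187) in A and 0.85 (SE 0.15, adjusted p = 0.000314) in B, and A and B were not called apart (adjusted p = 0.65).

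Slit1, a secreted Slit (GRCm39 chr19:41588696-41732104, minus strand), was at 7.92, 8.51, 7.53 and 5.2 CPM in N. In A it was at 31.2, 23.9, 7.54 and 28.2 CPM and in B at 16.9, 15.8, 19.5 and 14.0 CPM. A replicate 3 fell inside the N range while the other 3 A libraries and all B libraries lay above it. The log2 change was 1.64 (SE 0.34, edgeR adjusted p = 0.00166) in A against N and 1.18 (SE 0.34, adjusted p = 0.00776) in B against N. Without A replicate 3 the change in A was 1.94 (edgeR adjusted p = 7.84e-06), and Slit1 was then called lower in B than in A (log2 change -0.75, adjusted p = 0.0189), which it was not with all libraries (adjusted p = 0.401). A replicate 3 also held the least mesenchymal marker RNA of the A libraries, 0.314% of counts, and the least beta cell marker RNA, 0.583% of counts against up to 2.17%. It held the least pan-endocrine marker RNA of them as well, 0.755% of counts, the most EGFP, 971 CPM, and the fewest genes detected, 19445. Its Y-linked genes summed to 0.488 CPM, low as in the other libraries numbered 3. These features come together in 1 library and cannot be told apart. Their part in the result was not tested.

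Sema3e, a secreted semaphorin (GRCm39 chr5:14075290-14306703, plus strand), was low in all groups. It was at 2.71, 2.02, 2.03 and 2.12 CPM in N, at 6.51, 4.57, 4.08 and 6.47 CPM in A, and at 8.12, 6.38, 4.80 and 8.34 CPM in B. The alpha gate libraries did not overlap the N libraries, with log2 changes of 1.28 (SE 0.27, edgeR adjusted p = 0.00195) in A and 1.64 (SE 0.27, adjusted p = 0.000175) in B. Of the class 3 semaphorins of the set (Sema3a, Sema3c, Sema3d, Sema3e and Sema3f) it was the one called higher, under TMM and with library totals alone.

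Ntn4, a secreted netrin also found in basement membranes (GRCm39 chr10:93476543-93583069, plus strand), was at 27.7, 13.3, 30.5 and 26.3 CPM in N. In A it was at 38.6, 36.5, 39.6 and 41.9 CPM and in B at 57.8, 56.7, 50.6 and 53.7 CPM. The 3 groups did not overlap, and the order of the groups was N, A, B from low to high. Relative to N, the log2 change came to 0.68 (SE 0.19, edgeR adjusted p = 0.0121) in A against N and 1.16 (SE 0.20, adjusted p = 0.000188) in B against N, while B against A was not called (adjusted p = 0.116) except without N replicate 2 (adjusted p = 0.00509). An antisense gene, Gm15915, overlaps Ntn4 on the other strand and held 45.5% as many counts on average over all libraries. In N it held more counts than Ntn4, 913, 423, 960 and 1012 against 765, 337, 799 and 819. In B it held fewer, 200, 337, 354 and 141 against 1560, 1510, 1317 and 992. Gm15915 went the opposite way to Ntn4, with 29.7 ± 8.85 CPM in N, 10.9 ± 2.78 in A and 10.3 ± 3.26 in B (SD, n = 4). The sources used here do not say whether counting used strand, so reads from the 2 genes cannot be told apart where they overlap.

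**Figure D2:**
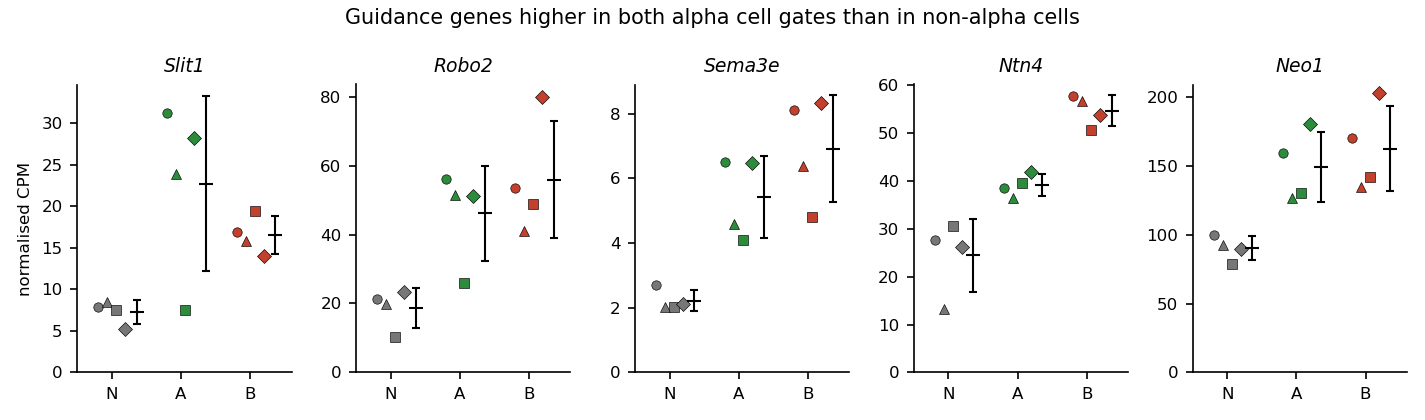
CPM of Slit1, Robo2, Sema3e, Ntn4 and Neo1 in each library of N, A and B, with the mean and SD of the 4 libraries as a bar. Points are shaped by replicate number (circle 1, triangle 2, square 3, diamond 4), and the square of A lies at 7.54 CPM for Slit1 and 25.9 CPM for Robo2, under the other A libraries.

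RefSeq windows of 250 bases upstream of the start site (GRCm38.p6, a build other than that of the counts) were available for 36 of the 44 members, 30 with a single window. Those of Sema3e, Ntn4 and Neo1 are shown because these are members higher in the alpha cell gates with 1 window each, and they can be set beside those of Slit2 and Cxcl12 further on. Windows were searched on both strands for 5 motifs. The GC box was searched as GGGCGG and could overlap itself. The TATA box was searched as TATAAA. The E-box was searched as CANNTG. The homeodomain core was searched as TAATTA. The forkhead core was searched as TGTTTAC. Capitals mark the matches, and a match is a description of the letters alone. The Sema3e window is chr5:14025026-14025275 (plus strand), that of Ntn4 chr10:93640799-93641048 (plus strand) and that of Neo1 chr9:59036442-59036691 (minus strand).
Sema3e: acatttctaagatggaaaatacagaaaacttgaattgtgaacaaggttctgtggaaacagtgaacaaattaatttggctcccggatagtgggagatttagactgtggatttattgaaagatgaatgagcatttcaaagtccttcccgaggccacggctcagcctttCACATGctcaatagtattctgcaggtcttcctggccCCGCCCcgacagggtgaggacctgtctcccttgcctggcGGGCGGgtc
Ntn4: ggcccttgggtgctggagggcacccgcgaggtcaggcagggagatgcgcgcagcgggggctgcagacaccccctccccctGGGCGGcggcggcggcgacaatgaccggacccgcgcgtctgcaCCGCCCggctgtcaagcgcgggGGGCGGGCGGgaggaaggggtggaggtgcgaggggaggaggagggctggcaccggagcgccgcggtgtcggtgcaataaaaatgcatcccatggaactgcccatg
Neo1: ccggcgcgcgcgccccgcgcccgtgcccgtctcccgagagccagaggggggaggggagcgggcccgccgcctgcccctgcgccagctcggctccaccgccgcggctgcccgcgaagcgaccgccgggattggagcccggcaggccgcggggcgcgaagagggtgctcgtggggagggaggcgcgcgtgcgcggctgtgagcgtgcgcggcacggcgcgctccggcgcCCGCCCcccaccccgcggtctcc
The Sema3e window held 48% G and C, 2 GC boxes and 1 E-box. Those of Ntn4 and Neo1 held 73.2% and 83.2% G and C with 4 and 1 GC boxes and no match to the other motifs. Of the 30 members with 1 window, 24 held a GC box, 11 an E-box, 3 a TATA box, 1 the homeodomain core and 0 the forkhead core. Over all 32851 RefSeq windows, 32.7% held a GC box, 66.2% an E-box, 12.4% a TATA box, 4.84% the homeodomain core and 3.17% the forkhead core. Those windows were not limited to genes with 1 window or to genes tested. The shares are therefore not like for like with the members' counts.

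With TMM scaling, most ligands of the set were highest in N. Of 21 ligands, 13 were lower than N in both alpha cell gates, and 8 of these were lower again in B than in A. Over all 44 members, 23 were lower than N in both gates, where 19.5% of all genes tested were. The 15 members called lower in B against A were all among these 23. Over all genes tested 9.12% were called lower in B against A. The share lower than N in both gates and lower again in B is not given here, so this nesting has no background to be set against. These 13 ligands were Slit2, Slit3, Sema3c, Sema3d, Sema3f, Sema5a, Sema6a, Ntn1, Efna1, Efna5, Efnb1, Efnb2 and Cxcl12. With library totals alone, only Slit3, Sema3c, Sema3d, Sema5a, Ntn1 and Efnb2 of them were called lower in both gates. Under that scaling 8.04% of all genes tested were called lower in A against N and 19.8% in B against N. Markers of mesenchymal, endothelial and acinar cells were also highest in N.

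The Slits split by gene. Slit2 was at 108, 163, 62.6 and 147 CPM in N, at 47.5, 69.5, 14.8 and 49.9 CPM in A and at 2.93, 7.65, 2.73 and 7.47 CPM in B. N and A overlapped at their edges, where A replicate 2 stood above N replicate 3, and B lay far under both. Within each replicate number A was under N. The log2 change was -1.40 (SE 0.44, edgeR adjusted p = 0.0203) in A against N, -4.54 (SE 0.51, adjusted p = 6.47e-06) in B against N and -3.14 (SE 0.49, adjusted p = 0.0015) in B against A. With the replicate number as a block, A against N gave -1.49 (SE 0.20, edgeR adjusted p = 0.00017). Slit3 was at 56.8, 51.6, 32.4 and 63.4 CPM in N, at 13.7, 23.7, 13.6 and 18.0 CPM in A and at 3.97, 8.22, 3.38 and 6.55 CPM in B. Its groups did not overlap, and it was lower by 1.57 (SE 0.29) in A and by 3.21 (SE 0.31) in B on the log2 scale.

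Cxcl12, a secreted chemokine that guides migrating cells through CXCR4, was at 239, 309, 208 and 313 CPM in N, at 114, 171, 65.0 and 84.8 CPM in A, and at 12.9, 41.2, 19.99 and 17.7 CPM in B. The groups did not overlap at either step. The fitted log2 change was -1.30 (SE 0.34, edgeR adjusted p = 0.00758) in A against N and -2.24 (SE 0.36, adjusted p = 0.00164) in B against A. In B, Cxcl12 stood at 8.58% of its N level, Slit2 at 4.33% and Slit3 at 10.8%, beside a median of 4.34% over the 15 mesenchymal marker genes and 3.48% over the 12 endothelial ones.
The windows of Slit2 (chr5:47982905-47983154, plus strand) and Cxcl12 (chr6:117168285-117168534, plus strand) are shown in the same way, from GRCm38.p6 with matches in capitals, as ligands highest in N.
Slit2: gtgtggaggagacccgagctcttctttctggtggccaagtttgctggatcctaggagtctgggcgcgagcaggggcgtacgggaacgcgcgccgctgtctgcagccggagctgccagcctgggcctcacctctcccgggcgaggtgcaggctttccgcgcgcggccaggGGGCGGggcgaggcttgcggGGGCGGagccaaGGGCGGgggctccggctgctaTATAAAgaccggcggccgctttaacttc
Cxcl12: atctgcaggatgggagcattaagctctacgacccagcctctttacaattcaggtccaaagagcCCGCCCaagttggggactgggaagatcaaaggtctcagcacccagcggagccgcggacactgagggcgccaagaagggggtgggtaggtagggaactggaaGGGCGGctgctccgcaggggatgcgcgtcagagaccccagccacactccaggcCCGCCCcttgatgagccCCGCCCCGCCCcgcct
Slit2 held 3 GC boxes and 1 TATA box at 69.6% G and C, and Cxcl12 held 5 GC boxes at 64.4% G and C.

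Among the semaphorin ligands, Sema3c and Sema3f had the highest levels per length in N (25.0 and 25.2 TPM, a unit explained with the rankings). Sema3c, which acts through neuropilins and plexins, was at 132, 154, 118 and 172 CPM in N, at 48.0, 94.1, 44.3 and 45.8 CPM in A and at 21.2, 24.1, 18.3 and 26.5 CPM in B. The 3 groups did not overlap, and A replicate 2 stood above the other A libraries. The log2 change was -1.31 (SE 0.23, edgeR adjusted p = 0.000525) in A against N and -1.37 (SE 0.23, adjusted p = 0.00234) in B against A. Sema3f, a ligand of Nrp2, was at 86.8, 60.9, 78.6 and 73.2 CPM in N, at 40.6, 50.05, 26.7 and 30.7 CPM in A and at 15.9, 25.0, 18.4 and 15.9 CPM in B. It too was lower without overlap at each step, at 49.4% of N in A and 25.1% in B. Sema3d averaged 64.6 ± 15.9, 14.1 ± 8.30 and 4.36 ± 3.05 CPM in N, A and B, and Sema5a, a transmembrane semaphorin, 82.5 ± 22.9, 25.1 ± 12.5 and 7.33 ± 1.48 CPM (SD, n = 4). Both were lower at each step, but the B against A call on Sema3d (log2 change -1.72, edgeR adjusted p = 0.0421) was lost in 8 of the 12 fits that left out 1 library, with an adjusted p of up to 0.135 without A replicate 2. Sema6a, another transmembrane semaphorin, stood at 59.0% of N for A and 47.8% for B, and was not called between A and B (adjusted p = 0.28).

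Ntn1, the netrin first known as a floor plate attractant, went against Ntn4. It was at 67.4, 22.9, 43.9 and 49.7 CPM in N, at 9.64, 16.6, 13.2 and 20.2 CPM in A and at 3.30, 12.8, 5.92 and 5.79 CPM in B. Each N library was above each A and B library, with log2 changes of -1.62 (SE 0.39, edgeR adjusted p = 0.00456) in A and -2.72 (SE 0.41, adjusted p = 7.46e-05) in B. Among the ephrins, Efnb1, which spans the membrane, averaged 64.9 ± 15.9 CPM in N, 46.9 ± 5.64 in A and 40.4 ± 4.67 in B (SD, n = 4), and its groups overlapped. Its change in A against N was -0.47 (SE 0.17, edgeR adjusted p = 0.038) and turned to 0.09 with library totals alone. Efna1 went from 31.1 ± 4.62 to 18.4 ± 5.2 and 8.10 ± 2.76 CPM and was called at each step. Efna5 and Efnb2 were lower than N in both gates, at 18.2% and 33.2% of N in B. Efna5 was not called between A and B (edgeR adjusted p = 0.0976) but was with the replicate number as a block (adjusted p = 0.0232), with DESeq2 and without B replicate 2. Efnb2 was not called between them (adjusted p = 0.528) except without A replicate 3.

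**Figure D3:**
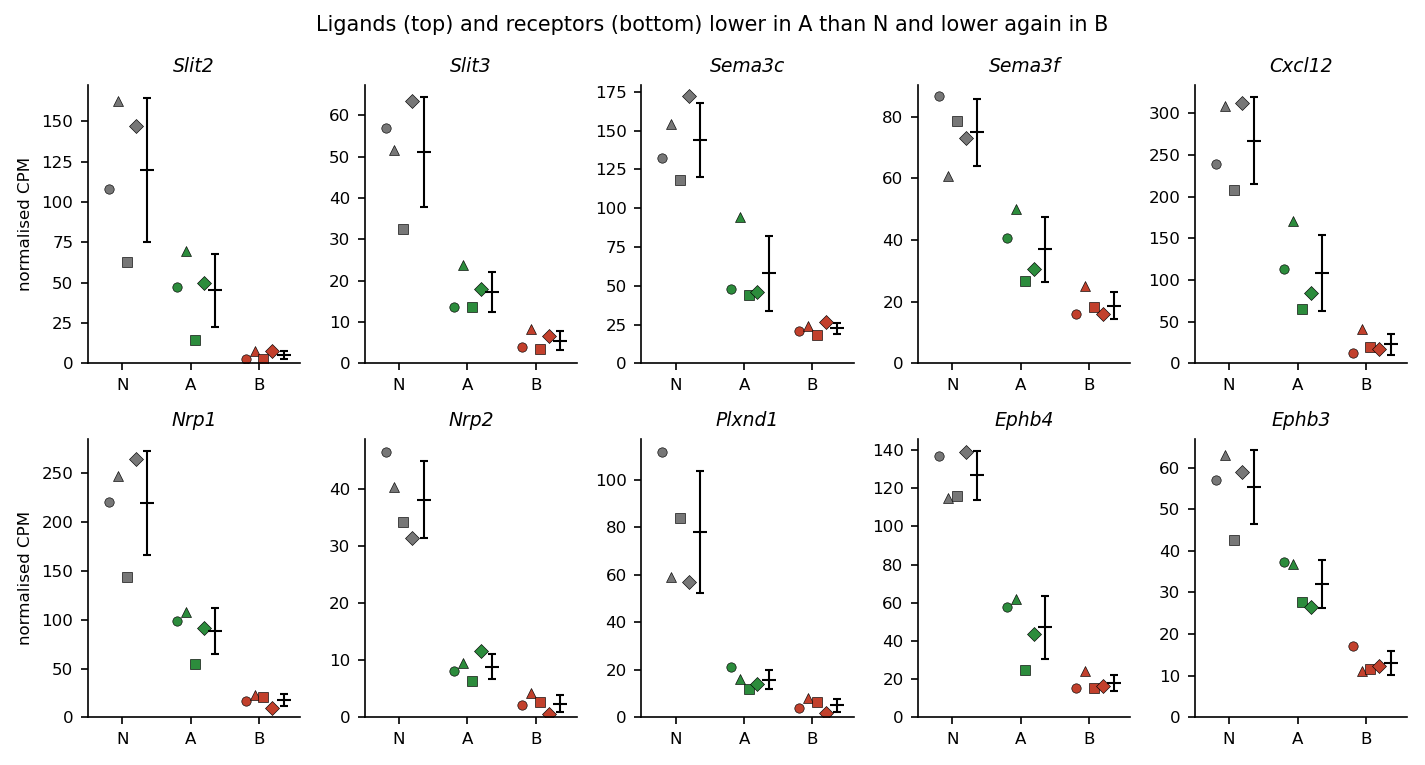
CPM of 5 ligands (Slit2, Slit3, Sema3c, Sema3f and Cxcl12) and 5 receptors (Nrp1, Nrp2, Plxnd1, Ephb4 and Ephb3) in each library, with the mean and SD of the 4 libraries of a group as a bar and points shaped by replicate number. All 10 were lower than N in both gates and lower again in B, and Slit2 is the one of them in which an A library, at 69.5 CPM, reached above an N library, at 62.6 CPM.

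Of 23 receptors, 10 were lower than N in both gates and 7 of these were lower again in B. Over all genes tested, 19.5% were lower than N in both gates and 9.12% were lower in B against A. The share meeting both rules is not given here, so the 7 of 10 have no background to be set against. Among the 10 receptors were some known from blood vessels. Plxnd1, an endothelial plexin that binds Sema3e, was at 112, 59.2, 84.1 and 57.1 CPM in N, at 21.4, 16.0, 12 and 14.1 CPM in A, and at 4.08, 8.03, 6.42 and 1.84 CPM in B. The groups did not overlap, with a log2 change of -2.30 (SE 0.35, edgeR adjusted p = 0.000196) in A against N and -1.62 (SE 0.36, adjusted p = 0.00999) in B against A. Nrp1, a receptor shared by class 3 semaphorins and VEGF, was at 221, 247, 144 and 265 CPM in N, at 98.3, 108, 54.2 and 91.4 CPM in A, and at 16.5, 23.2, 21.4 and 9.58 CPM in B. It was lower by 1.32 (SE 0.28) in A against N and by 2.31 (SE 0.29) in B against A on the log2 scale (edgeR adjusted p = 0.00183 and 0.00055). Nrp2, its paralog, was at 46.6, 40.5, 34.2 and 31.4 CPM in N, at 8.10, 9.57, 6.39 and 11.6 CPM in A, and at 2.15, 4.28, 2.65 and 0.541 CPM in B, again without overlap.

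Ephb4, the receptor of ephrin B2 on veins, averaged 127 ± 13.1 CPM in N, 47.1 ± 16.7 in A and 18.0 ± 4.28 in B (SD, n = 4). Ephb3, an Eph receptor of epithelia, averaged 55.4 ± 8.89, 32.0 ± 5.78 and 13.1 ± 2.78 CPM, and both receptors were lower at each step without overlap. Unc5b, a repulsive netrin receptor of vessels, averaged 8.74 ± 1.34, 3.93 ± 0.806 and 1.17 ± 0.769 CPM and was called at each step (edgeR adjusted p = 0.0343, 8.37e-05 and 0.0176 for A against N, B against N and B against A). Cxcr4, the receptor of Cxcl12, was near the floor of the counts in B. Its counts were 81, 64, 133 and 71 in N, 28, 24, 16 and 23 in A and 8, 4, 0 and 2 in B, where 3 counts in B replicate 3 would be 0.115 CPM. This gave a log2 change of -1.70 (SE 0.58, edgeR adjusted p = 0.029) in A against N and -2.76 (SE 0.66, adjusted p = 0.0151) in B against A.

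Plxna1, Plxna4 and Epha4 were lower than N in both gates and were not called between A and B. Plxna1, a plexin that pairs with neuropilins, averaged 47.0 ± 4.72, 26.4 ± 5.45 and 19.2 ± 4.40 CPM. Epha4, a receptor for ephrins of both classes, averaged 21.4 ± 8.49, 9.08 ± 5.06 and 3.78 ± 1.34 CPM (SD, n = 4). With the replicate number as a block both were called lower in B than in A (edgeR adjusted p = 0.0297 for Plxna1 and 0.0217 for Epha4, against 0.103 and 0.0837 without it), as they were without A replicate 3, Plxna1 also without B replicate 4 and Epha4 also with DESeq2 and without all libraries numbered 3. Plxna4 was below 10 CPM in N and averaged 1.66 ± 1.06 in A and 0.431 ± 0.459 in B. Another 3 members were called lower only in B against N, which does not show that they differ from the others. They were Robo1, Sema3a, a repellent that acts through Nrp1, at 13.6 ± 3.18, 5.16 ± 3.88 and 0.967 ± 1.19 CPM, and Plxnc1, a receptor for Sema7a, at 9.69 ± 3.54, 3.84 ± 3.50 and 1.29 ± 0.997 CPM.

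In fits without the replicate number, calls in A against N were the least stable. There, 7 of the 28 were lost when 1 library or another was left out. The highest adjusted p for each was 0.0559 for Slit2 (without N replicate 2), 0.0608 for Plxna4 (without A replicate 2), 0.0853 for Unc5b (without A replicate 4), 0.0827 for Efna1 (without A replicate 4), 0.127 for Efnb1 (without N replicate 4), 0.109 for Epha4 (without N replicate 2) and 0.111 for Cxcr4 (without N replicate 3), all by edgeR. All 31 calls in B against N held in each of the 12 such fits. In B against A, 13 of 15 held, the others being Sema3d and Unc5b, whose adjusted p reached 0.0513 without A replicate 2. None of these fits used the replicate number. With it as a block and all libraries kept, the 7 calls in A against N held. Their edgeR adjusted p then ran from 0.00017 for Slit2 to 0.049 for Efnb1.

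**Figure D4:**
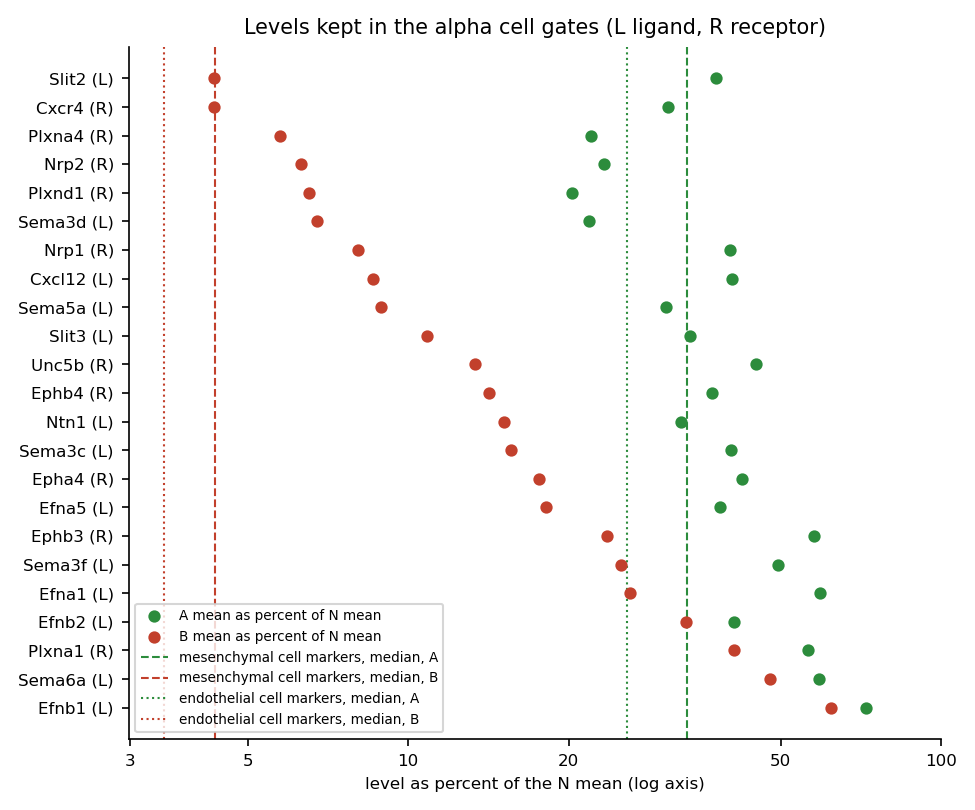
Mean CPM in A and in B as a percent of the mean in N for the 23 members lower than N in both gates, with lines at the medians of the mesenchymal and endothelial marker genes. In B the members run from 4.33% for Slit2 and Cxcr4 to 62.3% for Efnb1, beside marker medians of 4.34% and 3.48%.

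The 23 members that were lower than N in both gates are set here beside the markers of other cell types. In A they stood between 20.3% (Plxnd1) and 72.2% (Efnb1) of N, and the marker medians were 33.3% for mesenchymal, 25.8% for endothelial, 33.8% for immune, 26.7% for acinar and 54.9% for ductal cells. In B those medians were 4.34%, 3.48%, 8.97%, 16.1% and 34.2%. Of the 15 mesenchymal markers 14 were lower in A against N, 15 in B against N and 13 in B against A. Of the 12 endothelial markers the numbers were 9, 12 and 10, and of 12 immune markers 7, 12 and 9. Of 15 acinar markers they were 14, 14 and 0. Of 10 ductal markers 4, 6 and 2 were lower and 1, 2 and 0 higher. Of 7 mesothelial markers 6, 6 and 4 were lower and 1, 1 and 1 higher, with medians of 13.2% of N in A and 3.57% in B. Schwann and neural markers went less far down. Of 12 tested, 0, 4 and 0 were lower and 2, 2 and 1 higher, with medians of 71.8% in A and 44.1% in B. The part of these cells in the lower levels of ligands and receptors was not tested.

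A further 13 members were called in neither comparison with N, and these included the most abundant receptor per length of both alpha cell gates. Plxnb2, the receptor of Sema4 ligands in epithelia, was at 342, 266, 261 and 309 CPM in N, at 398, 341, 231 and 431 CPM in A, and at 460, 341, 330 and 475 CPM in B. The groups overlapped, and B against N gave an adjusted p of 0.0562 by edgeR. With the replicate number as a block it was called higher (log2 change 0.43, edgeR adjusted p = 0.00728), as it was with library totals alone and without N replicate 1, A replicate 3, B replicate 3 or all libraries numbered 3. Sema4d, which binds plexins of the B class, averaged 23.5 ± 7.57, 28.2 ± 4.91 and 31.8 ± 3.70 CPM and was not called in B against N (edgeR adjusted p = 0.0847). It was called higher there with the block (adjusted p = 0.0489), with library totals alone and without N replicate 3 or all libraries numbered 3. Dcc, the classic netrin receptor, was close to the limit of detection at 0.503 ± 0.270 CPM in N, 1.36 ± 0.417 in A and 0.750 ± 0.297 in B. Its A libraries, from 0.848 to 1.76 CPM, lay above its N libraries, from 0.153 to 0.752 CPM, and A against N was not called (edgeR adjusted p = 0.0512). It was called higher with the block (adjusted p = 0.0357), with library totals alone, with DESeq2, with the stricter filter and without N replicate 2, A replicate 2 or B replicate 3.

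The Eph receptors Epha7 and Ephb2 were present in all 3 groups, at 33.0 ± 3.21, 38.0 ± 4.64 and 38.5 ± 8.45 CPM for Epha7 and 37.4 ± 8.04, 39.8 ± 3.04 and 31.6 ± 2.99 CPM for Ephb2 (SD, n = 4). Neither was called in any comparison with all libraries, with edgeR adjusted p from 0.228 to 0.964 for Epha7 and from 0.165 to 0.65 for Ephb2. Both were called higher in A against N with library totals alone, and Epha7 also in B against N (edgeR adjusted p = 0.000713). Ephb2 was called lower in B against N without N replicate 3 or without all libraries numbered 3 (lowest edgeR adjusted p = 0.015). Plxna2, Plxna3 and Plxnb1 averaged between 20.4 and 46.7 CPM in every group, Sema6d between 35.1 and 43.7 CPM, and Efnb3 and Unc5c between 5.94 and 8.47 CPM. Sema4g and Epha5 stayed under 4 CPM on average. With library totals alone, Plxnb1 was called higher than N in both gates. Plxna3 and Efnb3 were then called higher in A only, and Plxna2, Sema6d and Sema4g in B only.

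No member was called higher in B than in A by edgeR, and 3 (Sema4g, Plxna2 and Ntn4) had an unadjusted p under 0.05 in that direction. DESeq2 called 1, Sema4g. No member was higher in A than in both other groups by edgeR, by unadjusted p or by DESeq2, where 0.232% of all genes tested were. Without A replicate 3, Slit1 met that rule, and without N replicate 2, Ntn4 was called higher in B than in A. Thus the 5 members above N were above it in both gates, and no difference between newly generated and further differentiated alpha cells was called for them with all libraries.

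Levels of different genes were compared per length, within one group, as the TPM of the authors' table, which divide counts by transcript length and bring each library to one common total. Among receptors in B, Plxnb2 ranked first at 120 ± 25.0 TPM, followed by Neo1 at 53.5 ± 11.7, Robo2 at 27.4 ± 7.33, Epha7 at 15.6 ± 3.61 and Ephb2 at 10.8 ± 1.5 TPM (SD, n = 4), none of which overlapped its neighbour. In A the order was Plxnb2 at 104, Neo1 at 48.4, Nrp1 at 38.9, Robo2 at 25.8 and Ephb4 at 18.1 TPM, and each neighbour after Plxnb2 overlapped the next. In N, Nrp1 at 46.9 TPM and Plxnb2 at 41.2 TPM overlapped and came before Ephb4 at 23.9 and Neo1 at 13.0 TPM, which did not overlap each other. So Neo1 was among the 4 most abundant receptors of the set in all 3 groups, and Nrp1 was so in A and N. Robo2 was among the 4 in both alpha cell gates and at rank 12 in N. Among ligands, Cxcl12 ranked first in N at 123 ± 41.2 TPM and in A at 99.9 ± 40.0 TPM. In B, Ntn4 at 25.3 ± 1.74, Cxcl12 at 20.8 ± 11 and Efnb1 at 20.5 ± 2.06 TPM led, where the range of Cxcl12 overlapped the other 2 and those of Ntn4 and Efnb1 did not overlap each other. TPM carry no TMM scaling, so levels in TPM are not set against each other across groups.

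**Figure D5:**
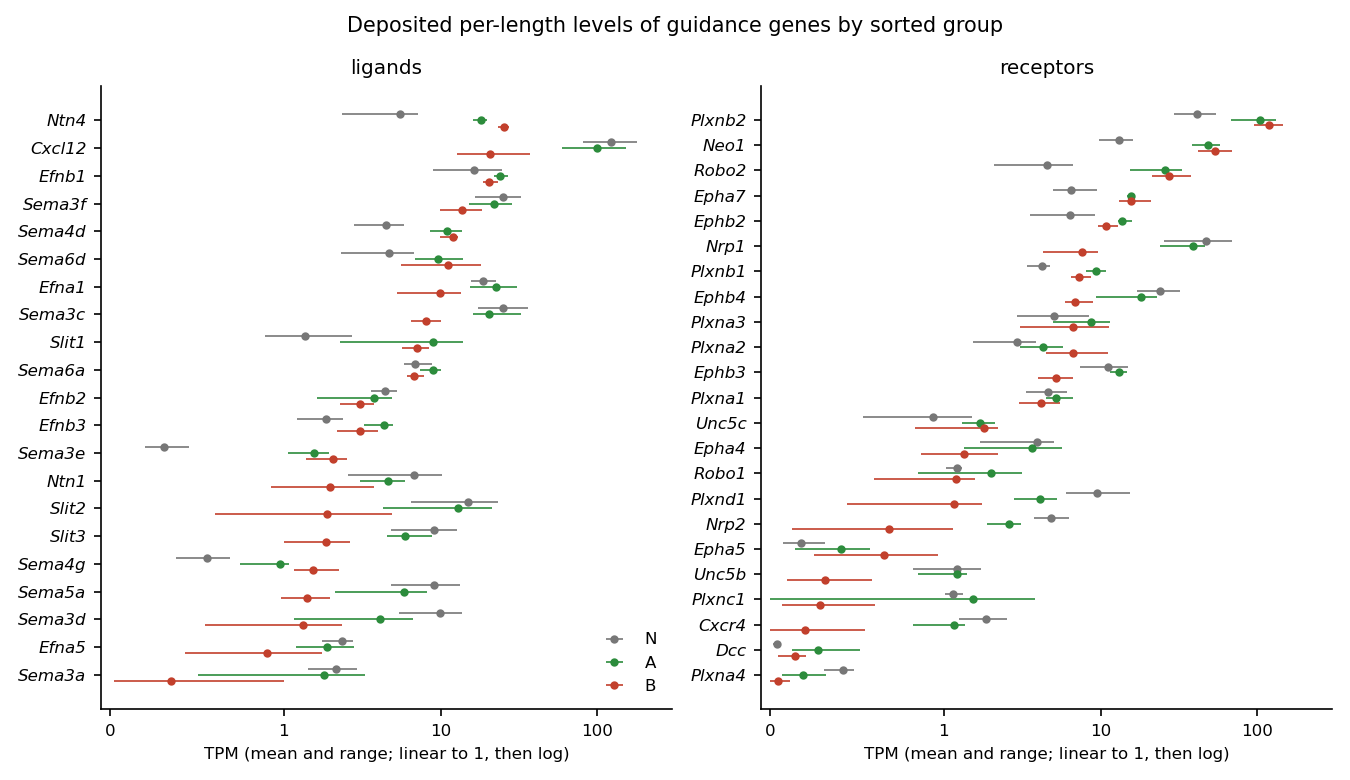
TPM of the 44 members in N, A and B on a symmetrical log axis, as the mean of 4 libraries with the lowest and highest library as a line, for ligands and receptors apart. Plxnb2 (120 TPM), Neo1 (53.5 TPM) and Robo2 (27.4 TPM) lead the receptors in B, and levels are to be read within a group only.

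Ratios within a library do not depend on how libraries are scaled. The ratio of Robo2 to Robo1 in TPM was 2.03 to 5.18 in N, 6.78 to 38.8 in A and 16.6 to 45.0 in B, so that N lay under both gates. Slit1 made up 2.42% to 9.85% of the summed TPM of the 3 Slits in N, 20.2% to 45.2% in A and 43.3% to 82.2% in B, with an overlap between A and B only. Ntn4 to Ntn1 was 0.658 to 1.01 in N, 2.78 to 5.94 in A and 6.64 to 29.5 in B, with no overlap. Sema3e to its receptor Plxnd1 was 0.0261 to 0.0468 in N, 0.255 to 0.552 in A and 0.950 to 5.68 in B. Neo1 to the sum of Dcc, Unc5b and Unc5c was 4.72 to 7.13 in N, 13.5 to 17.7 in A and 18.5 to 32.8 in B. That sum leaves out Unc5a, a netrin receptor outside the set that rose at each step. The ratio therefore does not give the balance of Neo1 with all netrin receptors. Each ratio joins a gene that was higher in the alpha cell gates with genes that were mostly lower. Dcc and Unc5c, however, were among the members called in neither comparison with N. These ranges describe the balance of the named genes in the mixed RNA of each gate. A shift from N follows from those levels and is no separate result.

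Guidance genes outside the set were read from lists. Of 18 other guidance ligands tested, 2 were higher and 5 lower in A against N, 1 higher and 10 lower in B against N, and 0 higher and 3 lower in B against A. Of 12 other receptors tested the numbers were 1 and 7, 1 and 9, and 1 and 5. In the same order, the shares of all genes tested were 23.8% higher and 21.3% lower, 29.7% and 30.5%, and 4.63% and 9.12%. Unc5a, a repulsive netrin receptor, was the receptor that rose at each step. It was at 14.9, 11.2, 10.6 and 11.4 CPM in N, at 39.5, 39.1, 52.0 and 44.4 CPM in A, and at 79.9, 61.2, 65.2 and 75.1 CPM in B, without overlap. The log2 change was 1.86 (SE 0.15, edgeR adjusted p = 5.02e-07) in A against N and 0.69 (SE 0.14, adjusted p = 0.00684) in B against A. Efna2, an ephrin tethered to the membrane by a lipid anchor, was higher in both gates, at 16.1 ± 2.18, 25.1 ± 2.54 and 22.4 ± 3.57 CPM (SD, n = 4). Among those that were lower, Epha3 went from 115 ± 39.7 to 40.3 ± 17.4 and 6.24 ± 2.80 CPM, and Ackr3, the other receptor of Cxcl12, from 13.9 ± 1.42 to 3.77 ± 2.14 and 0.433 ± 0.306 CPM.

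Cytoplasmic effectors of guidance receptors were called in both directions. Of 36 tested, 9 were higher and 15 lower in A against N, 9 higher and 13 lower in B against N, and 0 higher and 4 lower in B against A. Over all genes tested 23.8% were higher and 21.3% lower in A against N, 29.7% and 30.5% in B against N, and 4.63% and 9.12% in B against A. The median log2 change of the effectors was -0.41, -0.15 and 0.14. Chn1, which encodes a chimaerin that acts under Eph receptors, was at 12, 14.1, 13.0 and 12.5 CPM in N, at 34.1, 21.9, 28.7 and 30.8 CPM in A and at 33.4, 30.1, 30.3 and 33.8 CPM in B. Its alpha gate libraries all lay above N (log2 change 1.16, SE 0.14, edgeR adjusted p = 2.51e-05 in A against N).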

How the data were processed

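RNA was sequenced from 12 sorted samples of Gcg-Timer mouse pancreas. Per the labels' protocols, an RNeasy mini plus kit gave the RNA, and a SMARTER mRNA-Seq kit the libraries. The submitters' processing notes name STAR 2.5.2b, DRAGEN and the builds GRCm38 (mm10) and GRCm39 (mm39), and the sources used here do not say which made which table. Estimated counts and TPM for each gene were deposited by the authors, per the file headers, and the GRCm39 table with the reporter sequences was used.

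The estimated counts of the deposited table were rounded, which changed library totals by at most 0.000286%. Genes were filtered with filterByExpr (17230 of 55417 kept), scaled by TMM and tested by group over all 12 libraries with edgeR 4.0.16 (quasi-likelihood) in R 4.3.3, with Benjamini-Hochberg adjustment over all genes tested. The common biological coefficient of variation was 0.305, and standard errors come from the F statistic. Libraries of a group differed by more than sampling noise (at least 25.8 times, chi-square per degree of freedom), so each counts as 1. Deposited TPM served to order genes within a group and to form ratios and shares of genes within a library.

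The 44 members and all lists were chosen with earlier results of these data known. All members could be named, with full values for those called, and of other guidance lists the genes with the smallest p among called ones.

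Replicate numbers were taken as pairs, because each preparation was sorted into the 3 groups and same-numbered libraries shared one level of Y-linked genes (112 to 156 CPM for number 1, 0.191 to 0.488 CPM for number 3). Deviations of same-numbered libraries correlated at 0.152 to 0.512 between A and B, 0.076 to 0.367 between N and A and 0.013 to 0.29 between N and B over 10276 genes, so not every pair passed 0.1. The fit with this block was an alternative. Others were RLE factors, library totals alone, DESeq2 1.42.0, testing without a filter, keeping genes with 10 counts in 8 libraries, the GRCm38 table without reporters, each library left out in turn and, added after the data were seen, all libraries numbered 3 left out.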

Additional observations from a re-analysis of the deposited data

Results flagged for a closer look

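A library stood far from the other 3 of its group in 8 of 132 combinations of a member and a group, and chance alone marks about 1 in 20 of such groups. Robo2 was at 25.9 CPM in A replicate 3, against 51.2 to 56.0 CPM in the other A libraries. For Robo2, N replicate 3 was likewise the lowest N library, at 10.4 CPM. Sema6a was at 14.1 CPM in A replicate 3, against 21.3 to 22.5 CPM. Sema3c was at 94.1 CPM in A replicate 2, against 44.3 to 48.0 CPM, and Efnb1 was at 55.2 CPM there, against 43.1 to 45.2 CPM. Sema3e was at 2.71 CPM in N replicate 1, against 2.02 to 2.12 CPM. In B, Sema4g was at 5.36 CPM in replicate 4 against 3.19 to 3.49 CPM, Dcc at 0.308 CPM in replicate 3 against 0.866 to 0.938 CPM, and Ephb4 at 24.4 CPM in replicate 2 against 15.6 to 16.3 CPM. A replicate 2 held the most mesenchymal marker RNA of the A libraries (1.24% of counts) and A replicate 3 the least (0.314%), and their part in these levels was not tested.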

How the results depend on the processing

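The 5 members higher than N in both gates were called with the same direction under all 20 alternatives. Scaling mattered most. With library totals alone, members higher in A against N went from 5 to 13 and lower ones from 23 to 10, members higher in B against N from 5 to 12, members higher in both from 5 to 9 and lower in both from 23 to 10, and Efnb1 in A against N turned to 0.0866. The share over all genes moved too, from 23.8% to 47.8% higher and from 21.3% to 8.04% lower in A against N. In B against A, members called higher went from 0 to 1 with DESeq2. Members highest in A went from 0 to 1 without all libraries numbered 3. With 1 library left out, calls ranged from 23 to 29 in A against N (5 to 6 higher, 18 to 23 lower), from 31 to 33 in B against N (5 to 6 higher, 26 to 27 lower) and from 13 to 21 in B against A (0 to 1 higher, 13 to 21 lower, with 21 without A replicate 3). Members higher in both gates stayed at 5, those lower in both ranged from 18 to 23, and those highest in A from 0 to 1. The replicate block added 1, 2 and 3 calls in A against N, B against N and B against A and lost 0. Of the alternatives for called members, 1422 kept the call, 57 lost it and 1 reversed. Causes of these shifts were not tested. Members under 1 CPM, such as Dcc, and Cxcr4 in B rest on few counts, and changes in them may have gone undetected at this depth.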
